A study of Mus musculus with 9 samples.

Results

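The p53 pathway genes described here are 10: Cdkn1a, Trp53inp1, Sesn1, Eda2r, Phlda3, Perp, Mdm2, Ccng1, Bax and Trp53. They were looked up by gene symbol in the probe annotation, and where a gene had several probe sets the brightest over all 9 arrays stood for it. Of the 10, 8 had a probe set with that symbol alone, each exactly 1, among 14860 genes so named on the array. Bax and Trp53 were not analysed here. Signals were measured in perigonadal fat, a white adipose depot, of mice aged 4 months, with 3 arrays of wild type (wt), 3 of G609G/G609G and 3 of LCS/LCS. G609G and LCS are known as alleles of Lmna, which encodes the A-type lamins of the nuclear envelope. The first yields the truncated lamin A called progerin and the second lamin C only. Both were carried on both gene copies, and the wt arrays served both as controls. Values are log2 signals, given per array or as mean ± SD (n = 3 arrays), and changes are differences of log2 signal with their standard error (SE).

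p53 is a transcription factor that cells stabilise after DNA damage and other stress. It switches on genes that halt the cell cycle, repair DNA, restrain growth signalling or trigger apoptosis. Mdm2, itself a p53 target, is the ubiquitin ligase that marks p53 for destruction and so closes a feedback loop. Much of the control of p53 acts on the protein, which arrays do not measure. In fat, p53 activity is known in the context of obesity and ageing. Several p53 targets are also known targets of other stress and fasting regulators such as FoxO factors.

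The arrays were first checked for what else they hold. The mean signal of 10 white adipocyte markers was 12.04 to 12.06 on the wt arrays, 10.83 to 10.90 on the G609G/G609G arrays and 12.27 to 12.28 on the LCS/LCS arrays. In G609G/G609G 8 of these 10 were lower, with a median change of -0.59. Lep, the leptin gene, fell furthest, from 11.25 in wt to 5.32, so the mean overstates the fall of most of the list. Adipoq, the adiponectin gene, stood at 13.15, 13.18 and 13.06 in wt and at 12.29, 12.33 and 12.31 in G609G/G609G. The 11 skeletal muscle markers had a mean signal of 5.66 to 5.76 in wt, 11.62 to 11.72 in G609G/G609G and 5.91 to 6.07 in LCS/LCS. The 11 epididymal markers stood at 12.36 to 12.40, 8.08 to 8.30 and 11.59 to 11.68 in the same order. In G609G/G609G 10 of these 11 were lower, with a median change of -4.23, whereas in LCS/LCS 5 were higher and 3 lower with a median of 0.24, so that the mean and the median differ in sign there. Spint4, an epididymal gene, went from 12.94 ± 0.03 in wt to 4.68 ± 0.54 in LCS/LCS. The 12 testis and germ cell markers were all lower in both mutants, with medians of -1.61 in G609G/G609G and -2.44 in LCS/LCS. Of 10 macrophage markers, 8 were lower in G609G/G609G (median -1.09) and 7 were higher in LCS/LCS (median 0.36). These marker counts stand beside 53.5% of all genes called lower in G609G/G609G as deposited. In LCS/LCS 12.8% of all genes were called higher and 9.77% lower. Array medians ran from 5.94 to 6.01 in G609G/G609G, below the 6.36 to 6.45 of wt and the 6.31 to 6.37 of LCS/LCS. Changes were therefore recomputed with quantile-normalized arrays and with arrays centred on their medians. The median change over all genes in G609G/G609G against wt was -0.28 as deposited. Quantile normalization brought it to 0.02 and median centring to 0.14. The same 2 scalings moved the adipocyte list's median to -0.32 and -0.17 and each called 2 of its 10 markers higher. Under all 3 scalings 5 of the 10 were lower, as were 7 of the 10 macrophage markers, beside 25.5% of all genes. Correlations between arrays of 1 genotype were 0.986 to 0.995. Lmna had a wt signal of 7.60 ± 0.04, a G609G/G609G signal of 7.13 ± 0.12 and an LCS/LCS signal of 7.57 ± 0.08. One value per gene cannot tell the lamin isoforms apart, so this is no check of the genotype labels.

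**Figure D1:**
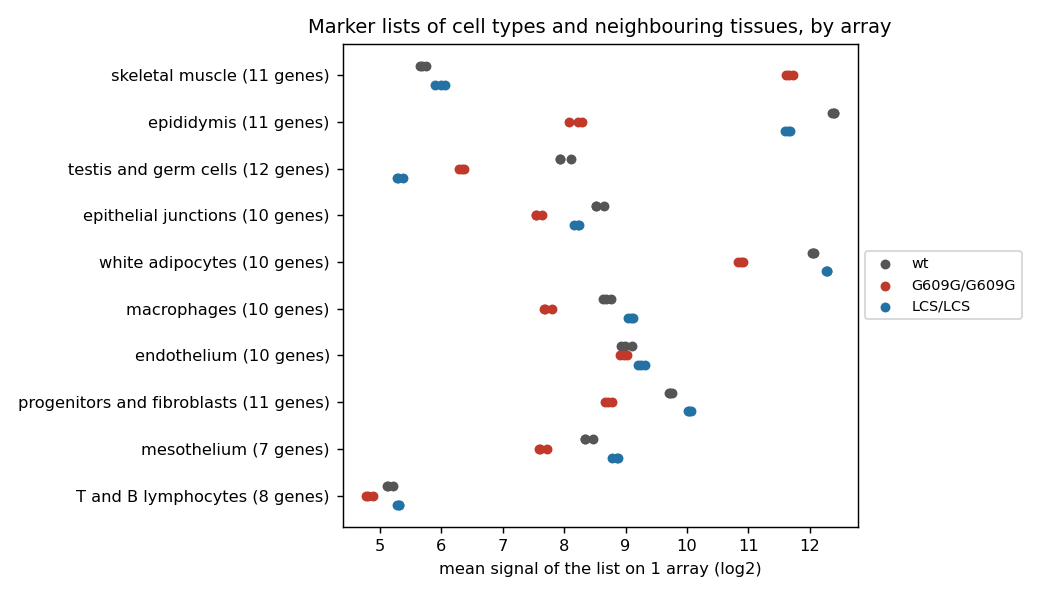
Mean log2 signal of each marker list on each of the 9 arrays, 1 point per array, coloured by genotype. The skeletal muscle list stands at 11.62 to 11.72 on the G609G/G609G arrays and at or below 6.07 on all others, and the epididymal list is lowest on the G609G/G609G arrays.

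Promoter windows were available for 6 of the 8 measured genes, with 2 annotated starts each for Cdkn1a and Sesn1. The 250 bases before each start were searched on both strands for the p53 decamer, the 10-base element that p53 binds in pairs and that reads the same on either strand. At least 1 decamer was present in 7.13% of 32851 such windows, and a pair with at most 13 bases between was present in 0.0639%. The windows that held a decamer are printed here to show where the exact matches of letters lie, with the decamers in capitals. A near match stays in lower case. Sequences are from RefSeq on GRCm38.p6, 5′ to 3′ on the strand of the gene. They are chr17:29090729-29090978 (+) for Cdkn1a, chr10:41887189-41887438 (+) for Sesn1, chr10:117710759-117711008 (-) for Mdm2 and chr11:40755287-40755536 (-) for Ccng1.
Cdkn1a: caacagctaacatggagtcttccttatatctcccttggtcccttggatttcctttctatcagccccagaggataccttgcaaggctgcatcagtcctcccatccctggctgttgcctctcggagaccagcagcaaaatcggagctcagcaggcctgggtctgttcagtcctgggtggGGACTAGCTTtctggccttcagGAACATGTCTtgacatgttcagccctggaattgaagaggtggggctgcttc
Sesn1: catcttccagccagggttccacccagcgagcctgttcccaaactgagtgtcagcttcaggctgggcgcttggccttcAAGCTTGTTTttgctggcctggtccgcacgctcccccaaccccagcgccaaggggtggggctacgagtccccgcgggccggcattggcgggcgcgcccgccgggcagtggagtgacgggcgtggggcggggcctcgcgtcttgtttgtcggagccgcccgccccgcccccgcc
Mdm2: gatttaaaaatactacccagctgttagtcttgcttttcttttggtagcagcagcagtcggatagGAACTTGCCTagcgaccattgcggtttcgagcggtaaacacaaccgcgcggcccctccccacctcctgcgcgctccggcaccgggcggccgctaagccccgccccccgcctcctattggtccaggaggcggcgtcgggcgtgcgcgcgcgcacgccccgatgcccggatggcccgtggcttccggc
Ccng1: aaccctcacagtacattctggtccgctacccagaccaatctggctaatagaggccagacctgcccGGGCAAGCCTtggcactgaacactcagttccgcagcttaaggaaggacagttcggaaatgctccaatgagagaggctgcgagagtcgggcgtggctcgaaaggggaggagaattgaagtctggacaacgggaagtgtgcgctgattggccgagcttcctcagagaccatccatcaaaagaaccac

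The window of the upstream Cdkn1a start held 2 decamers, which begin at positions -73 and -51 from the start with 12 bases between them. The bases right after the second come close to a decamer but are no exact match, so they were not marked. The window lies 2790 bases before that of the other Cdkn1a start, which held none. Sesn1, Mdm2 and Ccng1 held 1 decamer each, beginning at positions -173, -186 and -185. The windows of Eda2r and Phlda3 and the upstream window of Sesn1 held none, which says only that these letters were not in those bases. Of the 4 genes with a decamer, Cdkn1a and Sesn1 rose in G609G/G609G, while Mdm2 turned with the scaling and Ccng1 was not called there as deposited, as described next. A match of letters is a description and not a sign that the factor binds.

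In G609G/G609G fat, 4 of the 8 measured genes were higher than in wt, 3 were lower and 1 did not pass the test. Cdkn1a, Trp53inp1, Sesn1 and Eda2r rose by 1.33 to 3.05 on the log2 scale. Phlda3 and Perp fell by 1.35 and 1.05. As deposited, Mdm2 was 0.21 lower and Ccng1 stayed within 0.08, but quantile normalization and median centring each called both higher. Of all 14860 genes, 10.5% were called higher and 53.5% lower in this comparison at an adjusted p of 0.05 or less. Quantile normalization and median centring each called 6 of the 8 genes higher and 2 lower. Among all genes quantile normalization called 4237 higher and 4388 lower, and median centring 6517 and 4108. Under all 3 scalings, 4 of the genes remained higher and 2 lower, against 10.2% and 25.5% of all genes. The 3 lower calls of 8 therefore lie near or below the background share, and the 4 higher calls lie above it. The members were chosen with earlier results of these data known, so this is a description and not a test. Over the 8 genes the median change was 0.71 as deposited, beside -0.28 over all genes. In such bulk tissue, more cells of a type and more RNA per cell cannot be told apart.

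**Figure D2:**
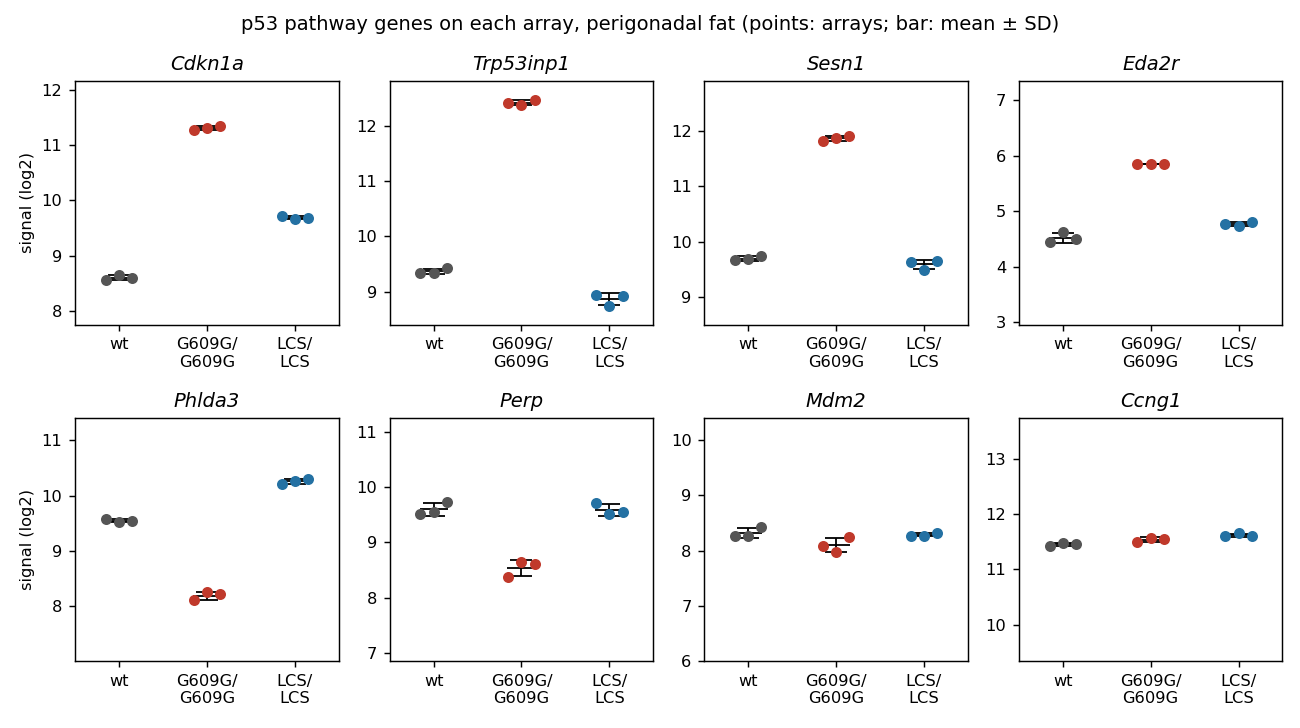
Log2 signal of the 8 measured genes on each array (points), with mean ± SD of 3 arrays per genotype (bars); every panel spans the same number of log2 units. Cdkn1a, Trp53inp1, Sesn1 and Eda2r are highest in G609G/G609G, Phlda3 and Perp lowest there, and Mdm2 and Ccng1 lie close together in all genotypes.

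Among the genes of growth arrest, Cdkn1a encodes p21, the inhibitor of cyclin-dependent kinases and the classic p53 target. Its signals (probe set 6849595) were 8.56, 8.65 and 8.59 in wt, 11.27, 11.30 and 11.35 in G609G/G609G and 9.72, 9.67 and 9.68 in LCS/LCS. The 3 genotypes did not overlap, with G609G/G609G highest, LCS/LCS between and wt lowest. The 6.53-fold difference between G609G/G609G and wt (log2 change 2.71, SE 0.05) had an adjusted p of 6.75e-09. LCS/LCS lay 2.13-fold above wt (1.09, SE 0.05, adjusted p = 3.79e-06), and G609G/G609G lay 3.07-fold above LCS/LCS (1.62, SE 0.05, adjusted p = 7.37e-08). Quantile normalization and median centring moved the first change to 3.11 and 3.13 and kept all 3 calls. Beside the rise in LCS/LCS, 4 of 11 skeletal muscle markers were called higher there with a list median of 0.22. Among all genes, 12.8% were called higher there. Acta1, the skeletal muscle actin, had the largest rise of the list at 1.51 (SE 0.07, adjusted p = 4.22e-06). The change was above 0 for 8 of the 11. Ckm, Tnnc2 and Mb did not rise, at 5.94, 4.91 and 5.40 in wt and 5.91, 4.86 and 5.20 in LCS/LCS. The part of muscle RNA in the Cdkn1a level was not tested.

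Ccng1, the cyclin G1 gene, is a p53 target whose product recruits a phosphatase that acts on Mdm2. It was bright and nearly level, at 11.43, 11.48 and 11.46 in wt, 11.49, 11.57 and 11.55 in G609G/G609G and 11.60, 11.65 and 11.61 in LCS/LCS. The ranges of neighbouring genotypes were at most 0.03 apart, with wt lowest and LCS/LCS highest. As deposited, the change in G609G/G609G was 0.08 (95% interval -0.03 to 0.19, adjusted p = 0.198) and that in LCS/LCS 0.16 (0.05 to 0.27, adjusted p = 0.0529). The first was called higher after quantile normalization (0.41, adjusted p = 0.000108) and median centring (0.51, adjusted p = 9.47e-05). The second was called after median centring (0.22, adjusted p = 0.0209) but not after quantile normalization (0.07, adjusted p = 0.337), and as deposited without G609G/G609G replicate 3 (adjusted p = 0.0404). G609G/G609G against LCS/LCS gave -0.08 (adjusted p = 0.184) as deposited, called lower with a trended prior variance (0.0368), and 0.34 and 0.29 after the other scalings. Its direction between the mutants was therefore not settled.

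Mdm2, the p53 ubiquitin ligase, was the member with no settled direction against wt in G609G/G609G. Its signals were 8.26, 8.27 and 8.42 in wt, 8.09, 7.98 and 8.24 in G609G/G609G and 8.27, 8.27 and 8.32 in LCS/LCS. The G609G/G609G arrays lay just below both other genotypes, which overlapped each other. The change in G609G/G609G was -0.21 as deposited (SE 0.08, adjusted p = 0.0491), but 0.25 after quantile normalization (adjusted p = 0.00289) and 0.21 after median centring (adjusted p = 0.0166). The deposited call was lost without G609G/G609G replicate 1 or 2, without any 1 of the wt or of the LCS/LCS replicates (adjusted p = 0.0645 to 0.147), and held without G609G/G609G replicate 3. In LCS/LCS the change was -0.03 (95% interval -0.21 to 0.15, adjusted p = 0.869). Against LCS/LCS, G609G/G609G was at -0.18 (adjusted p = 0.083), a call gained without G609G/G609G replicate 3 (adjusted p = 0.0178), and at 0.32 and 0.19 after the other scalings. Cdkn1a and Mdm2, both classic p53 targets, thus differed in G609G/G609G by changes of 2.71 and -0.21.

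Of the genes that act in growth restraint and autophagy, Sesn1 encodes sestrin 1, a stress protein that restrains mTORC1. Its signals were 9.66, 9.68 and 9.74 in wt, 11.81, 11.87 and 11.91 in G609G/G609G and 9.63, 9.49 and 9.65 in LCS/LCS. All G609G/G609G arrays stood above all others, and LCS/LCS lay just below wt with 0.01 between their nearest arrays. It rose 4.50-fold in G609G/G609G against wt (2.17, SE 0.06, adjusted p = 6.31e-08) and was 4.83-fold higher than in LCS/LCS (2.27, adjusted p = 3.73e-08). In LCS/LCS its change was -0.10 (95% interval -0.24 to 0.04, adjusted p = 0.34), called lower only after quantile normalization (-0.16, adjusted p = 0.0452).

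Trp53inp1 encodes a p53-inducible nuclear protein that also takes part in autophagy. Its signals (probe set 6911679) were 9.34, 9.34 and 9.42 in wt, 12.40, 12.38 and 12.47 in G609G/G609G and 8.94, 8.74 and 8.92 in LCS/LCS. The order was G609G/G609G, wt, LCS/LCS, with no overlap. It rose 8.28-fold in G609G/G609G against wt (3.05, SE 0.07, adjusted p = 1.71e-08), the largest change among the 8 genes in this comparison under all 3 scalings. In LCS/LCS it fell by 0.50 (SE 0.07, adjusted p = 0.0015), which is under the fold of 1.5 that the study's design text sets. The direct difference between the mutants was 3.55 (SE 0.07, adjusted p = 6.77e-09), and all 3 calls held under every scaling.

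Phlda3 encodes a small pleckstrin homology protein that competes with Akt for membrane lipids and so represses Akt. Its signals (probe set 6753394) were 9.57, 9.52 and 9.54 in wt, 8.11, 8.25 and 8.22 in G609G/G609G and 10.21, 10.27 and 10.30 in LCS/LCS. The genotypes did not overlap, and the order was the reverse of that of Trp53inp1. It fell by 1.35 in G609G/G609G (SE 0.06, adjusted p = 4.43e-07), and by 0.93 after either other scaling. In LCS/LCS it rose by 0.72 (SE 0.06, adjusted p = 8.51e-05), and G609G/G609G stood 2.07 below LCS/LCS (log2 change -2.07, adjusted p = 3.84e-08). All 3 calls held under every scaling. The medians of most marker lists moved in the same directions as deposited. In G609G/G609G and LCS/LCS against wt they were -1.09 and 0.36 for 10 macrophage markers and -1.04 and 0.25 for 11 progenitor and fibroblast markers. They were -0.71 and 0.42 for 7 mesothelial markers and -0.59 and 0.165 for 10 white adipocyte markers. Endothelial (-0.09 and 0.275), lymphocyte (-0.24 and 0.15) and epididymal markers (-4.23 and 0.24) had these signs too. Skeletal muscle, testis and epithelial junction markers did not. The macrophage list means were 8.63 to 8.77 in wt, 7.67 to 7.81 in G609G/G609G and 9.05 to 9.12 in LCS/LCS. The part of any of these cells in the Phlda3 level was not tested. Trp53inp1 and Phlda3 are the members that were called in opposite directions in the mutants, and the direct comparison of the mutants called both.

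Of the membrane proteins of the pathway, Eda2r is the receptor of ectodysplasin A2 and belongs to the tumour necrosis factor receptor superfamily. Its signals were 4.45, 4.62 and 4.49 in wt, 5.85, 5.85 and 5.85 in G609G/G609G and 4.77, 4.73 and 4.81 in LCS/LCS. All lay below the median of their array, and the genotypes did not overlap. Without detection calls it is not known whether the wt and LCS/LCS signals were above background, so the differences of signal given here may understate the change and no fold is given. The signal was 1.33 higher in G609G/G609G than in wt (SE 0.06, adjusted p = 5.77e-07). In LCS/LCS it was 0.25 higher (SE 0.06, adjusted p = 0.0206). That call was lost without LCS/LCS replicate 1 or 3 (adjusted p = 0.0713 and 0.0869) or wt replicate 1 or 3 (0.0811 and 0.0608) and with a trended prior variance (0.0522). G609G/G609G exceeded LCS/LCS by 1.08 (adjusted p = 1.45e-06).

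Perp encodes a tetraspan protein of desmosomes, a target of p53 and p63 that is abundant in epithelia. Its signals were 9.51, 9.54 and 9.73 in wt, 8.37, 8.64 and 8.61 in G609G/G609G and 9.71, 9.51 and 9.54 in LCS/LCS. The G609G/G609G arrays stood below all others, and wt and LCS/LCS overlapped. It fell by 1.05 in G609G/G609G (SE 0.10, adjusted p = 3.91e-05), by 0.64 after quantile normalization and by 0.63 after median centring. In LCS/LCS the change was -0.01 (95% interval -0.23 to 0.22, adjusted p = 0.978). All 10 measured markers of epithelial junctions were also lower in G609G/G609G against wt as deposited, beside 53.5% of all genes. Their median change was -1.0, with a list mean of 7.54 to 7.64 against 8.52 to 8.64. Under all 3 scalings 9 of the 10 were lower, beside 25.5% of all genes. In LCS/LCS 7 of those 10 were lower and 2 higher, both as deposited and under all 3 scalings. Of all genes, 9.77% were lower and 12.8% higher there as deposited. The list mean in LCS/LCS was 8.16 to 8.25, while Perp was not called. The part of epithelial RNA in the Perp level was not tested.

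**Figure D3:**
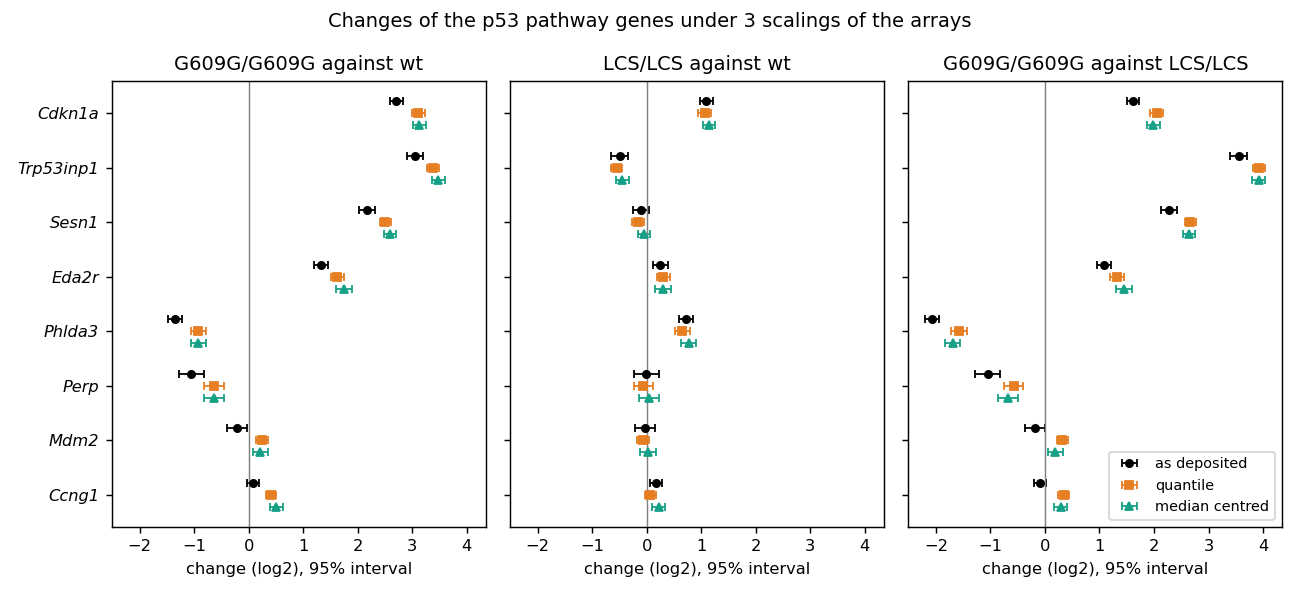
Change of each gene in the 3 comparisons (x axis, log2; points with 95% intervals of limma) under the 3 scalings of the arrays. Cdkn1a, Trp53inp1, Sesn1 and Eda2r lie right of 0 and Phlda3 and Perp left of 0 in both comparisons of G609G/G609G under each scaling, whereas Mdm2 crosses 0 with scaling.

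In LCS/LCS fat against wt, 3 of the 8 genes were higher (Cdkn1a, Phlda3 and Eda2r), 1 was lower (Trp53inp1) and 4 did not pass the test. These 4 calls held under all 3 scalings, while quantile normalization added Sesn1 as lower and median centring added Ccng1 as higher. Of all genes, 12.8% were called higher and 9.77% lower as deposited, and 12.0% and 8.71% under all 3 scalings. The median change over the 8 genes was 0.08, beside 0.03 over all genes. The changes were smaller in size than in G609G/G609G for each of the 4 genes called in both mutants, for example 1.09 against 2.71 for Cdkn1a. Both comparisons use the same wt arrays, so a wt array that is high or low moves both.

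In G609G/G609G against LCS/LCS, 4 genes were higher (Trp53inp1, Sesn1, Cdkn1a and Eda2r) and 2 lower (Phlda3 and Perp). Quantile normalization and median centring each called 6 higher and 2 lower, adding Mdm2 and Ccng1, and 4 and 2 held under all 3 scalings. Among all genes 11.3% were called higher and 51.1% lower as deposited, and 10.9% and 26.2% under all 3 scalings. Quantile normalization called 4131 of the 14860 genes higher and 4391 lower, and median centring 6174 and 4545. For Perp the change was -1.05 (adjusted p = 3.67e-05). The skeletal muscle list was called higher in G609G/G609G for 11 of 11 markers, with a median change of 6.23 against LCS/LCS and 6.30 against wt. Muscle also expresses Cdkn1a, Trp53inp1, Sesn1 and Eda2r. Whether their rises came from adipocytes, muscle or other cells was not tested.

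Several members have close relatives on the array, and the relatives did not share 1 direction. Sesn1 was 2.17 higher in G609G/G609G against wt, Sesn2 rose by 0.33 (SE 0.09, adjusted p = 0.0187) and Sesn3 fell by 1.48 (SE 0.12, adjusted p = 1.5e-05), each called under all 3 scalings. After quantile normalization the Sesn2 change was 0.73 and the Sesn3 change -0.99. The Sesn2 call was lost without G609G/G609G replicate 3 (adjusted p = 0.0555). Sesn3 signals were 8.48, 8.71 and 8.74 in wt and 6.98, 7.10 and 7.41 in G609G/G609G, so the sestrins split with no overlap of these genotypes for Sesn1 or Sesn3. Trp53inp2, a relative of Trp53inp1 that acts in autophagy, ran the other way. Its signals were 11.68, 11.62 and 11.68 in wt, 9.89, 9.80 and 9.85 in G609G/G609G and 12.64, 12.55 and 12.57 in LCS/LCS. It fell by 1.81 in G609G/G609G (SE 0.05, adjusted p = 6.75e-08) and rose by 0.93 in LCS/LCS (adjusted p = 1.18e-05), where Trp53inp1 rose by 3.05 and fell by 0.50.

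Among the kinase inhibitors related to p21, Cdkn1b (p27) was not called in G609G/G609G as deposited (-0.09, adjusted p = 0.525) and was called higher after both other scalings (0.39 and 0.34). Cdkn1c (p57) was 0.40 lower there as deposited (adjusted p = 0.000408) but 0.13 and 0.03 after quantile normalization and median centring, and in LCS/LCS it rose by 0.31 (adjusted p = 0.00631). The Gadd45 genes encode stress sensors of growth arrest and DNA repair. Gadd45g rose by 3.96 in G609G/G609G (SE 0.06, adjusted p = 3.19e-09) and by 0.90 in LCS/LCS (adjusted p = 4.53e-05), with signals of 7.54, 7.70 and 7.75 in wt, 11.63, 11.59 and 11.65 in G609G/G609G and 8.59, 8.55 and 8.56 in LCS/LCS. Gadd45b rose by 2.45 in G609G/G609G and was 0.24 in LCS/LCS (adjusted p = 0.073), where both other scalings called it higher. Gadd45a, the best known p53 target of the family, was -0.14 in G609G/G609G (adjusted p = 0.0648, and 0.0436 without G609G/G609G replicate 3) and turned to 0.33 and 0.29 after the other scalings. Ccng2, a cyclin related to Ccng1, was 0.13 as deposited (adjusted p = 0.207) and called higher after the other scalings (0.59 and 0.55), and Mdm4, the partner of Mdm2, was 0.30 lower as deposited (adjusted p = 0.0156). The Mdm4 value turned to 0.15 and 0.13 after the other scalings, and leaving out wt replicate 3 ended its call (adjusted p = 0.0534).

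**Figure D4:**
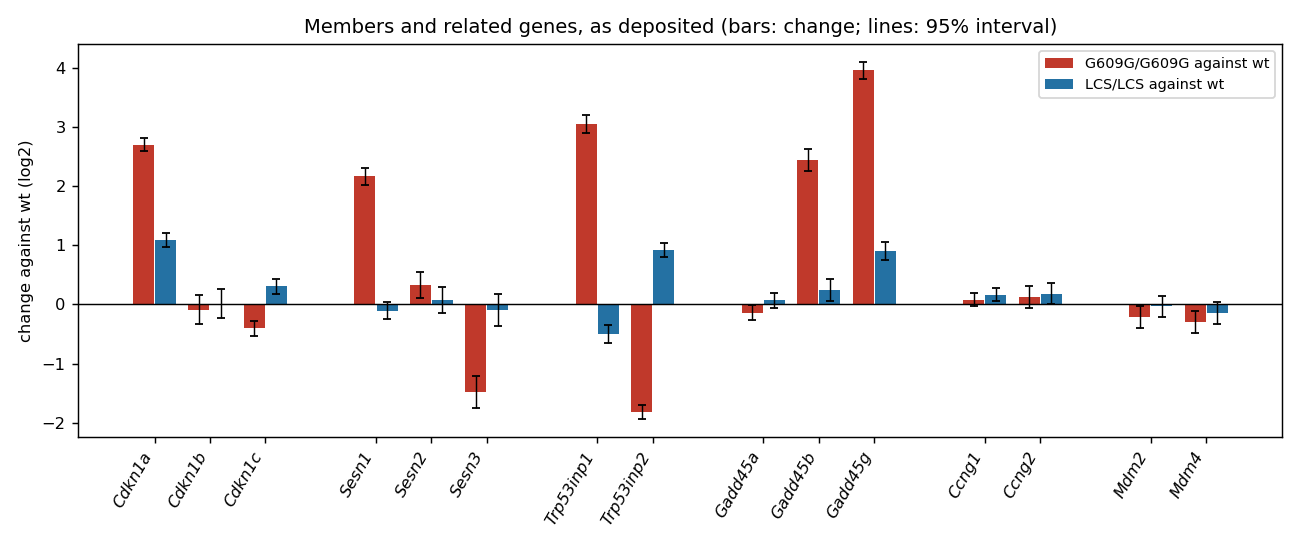
Change against wt (bars, log2, with 95% intervals of limma) of members and related genes in G609G/G609G and in LCS/LCS, as deposited. Sesn1 and Sesn3, and Trp53inp1 and Trp53inp2, point in opposite directions in G609G/G609G, and Gadd45g and Gadd45b are higher while Gadd45a is near 0.

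A wider list of 74 p53 regulators, targets and related genes gave the setting, of which 62 were measured. In G609G/G609G against wt, 11 of the 62 rose and 33 fell as deposited, with a median change of -0.30 beside -0.28 over all genes, of which 10.5% rose and 53.5% fell. Under all 3 scalings 11 rose and 15 fell, beside 10.2% and 25.5% of all genes. The median turned to 0.13 after either other scaling. After quantile normalization 24 were higher and 15 lower, beside 4237 and 4388 of all 14860 genes. After median centring 26 were higher and 16 lower, beside 6517 and 4108 of all genes, so the balance of all genes turned too. In LCS/LCS 16 rose and 4 fell as deposited, or 16 and 3 under all 3 scalings, with a median of 0.07 beside 0.03 and with 12.8% and 9.77% of all genes. In G609G/G609G against LCS/LCS, the deposited values called 11 of them higher and 29 lower, of which 11 and 18 held under all 3 scalings, beside 11.3% and 51.1% of all genes as deposited. The balance turned to 29 higher and 18 lower after quantile normalization and to 29 and 21 after median centring. Over all 14860 genes these scalings called 4131 higher and 4391 lower, and 6174 and 4545.

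Of 16 regulators, 1 rose and 10 fell in G609G/G609G, and 1 and 4 did so under all 3 scalings. The balance depended on the scaling, with 5 higher and 4 lower on quantile-normalized arrays and 7 and 4 on median-centred ones. As for each role here, these counts stand beside the 10.5% of all genes called higher and 53.5% called lower as deposited. The rescaled counts stand beside 4237 higher and 4388 lower of 14860 genes by quantile normalization, and 6517 and 4108 by median centring. Hipk2, a kinase that activates p53, fell by 1.58 (SE 0.04, adjusted p = 5.8e-08), from 11.31, 11.30 and 11.31 to 9.71, 9.72 and 9.76. Trp53bp1, a damage response scaffold, fell by 1.06 and Atm, the kinase that signals DNA breaks, by 0.88, while Sirt1, a deacetylase of p53, rose by 0.46. These calls held under each scaling but their sizes did not, since quantile normalization gave -0.53, -0.43 and 0.92 and median centring -0.64, -0.46 and 0.89. Cdkn2a, whose locus encodes p16 and the Mdm2 inhibitor Arf, was 6.37, 6.28 and 6.04 in wt, 6.40, 6.34 and 6.03 in G609G/G609G and 6.27, 6.27 and 6.22 in LCS/LCS. Its genotypes overlapped, and the change in G609G/G609G was 0.03 (95% interval -0.24 to 0.29, adjusted p = 0.868) as deposited, though called higher at 0.48 and 0.45 after the other scalings. In LCS/LCS 3 of the 16 rose and 2 fell, beside 12.8% and 9.77% of all genes as deposited. Daxx, a p53 cofactor, rose by 0.62 and Hipk2 by 0.46, and Ppm1d, the phosphatase that switches p53 signalling off, fell by 0.35.

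Of 13 genes listed as arrest targets, 4 rose and 3 fell in G609G/G609G (4 and 2 under all 3 scalings). On quantile-normalized arrays 7 were higher and 2 lower, and on median-centred ones 8 and 2. The list includes relatives described above. Of these, Trp53inp2 and Cdkn1c were among the falls and Gadd45g and Gadd45b among the rises. Cdkn1b, Gadd45a and Ccng2 were not called as deposited. In LCS/LCS 4 rose and 0 fell, beside 12.8% and 9.77% of all genes as deposited. Btg2, an antiproliferative gene, rose by 1.43 (SE 0.07, adjusted p = 1.49e-06) and by 0.54 in LCS/LCS (adjusted p = 0.00165). Rprm, whose product reprimo mediates arrest, fell by 1.09 in G609G/G609G, or by 0.59 after quantile normalization. Of 14 apoptosis targets, 1 rose and 9 fell in G609G/G609G (1 and 3 under all 3 scalings), with 3 higher and 3 lower on quantile-normalized arrays and 3 and 4 on median-centred ones. Bcl2l1, which encodes the survival protein Bcl-xL, rose by 0.89 (SE 0.05, adjusted p = 3.36e-06), and by 1.40 after quantile normalization. Casp9, the apoptosome caspase, fell by 0.92, the pore-forming Bak1 by 0.88 and the survival gene Bcl2 by 0.72. After quantile normalization these changes were still called but shrank to -0.40, -0.37 and -0.21, and after median centring to -0.50, -0.46 and -0.29. Pmaip1 (Noxa) and Bbc3 (Puma), the p53-induced triggers of apoptosis, were not called in G609G/G609G as deposited, at -0.07 (adjusted p = 0.702) and -0.11 (adjusted p = 0.269). Bbc3 was called higher after median centring (0.32). In LCS/LCS Bcl2 rose by 0.72 and Bak1 by 0.61.

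Of 12 metabolism and repair targets, 3 rose and 8 fell in G609G/G609G (3 and 5 under all 3 scalings), with 6 higher and 5 lower on quantile-normalized arrays and 4 and 5 on median-centred ones. Ddit4 encodes Redd1, a stress-induced inhibitor of mTORC1. It rose by 2.56 (SE 0.11, adjusted p = 4.41e-07), from 8.70, 8.43 and 8.85 to 11.20, 11.17 and 11.30, and by 0.91 in LCS/LCS. Lpin1, a lipid phosphatase and coactivator, rose by 1.12, while Dram1, an autophagy gene of lysosomes, fell by 1.55 and Tsc2, a brake on mTORC1, by 1.11, or by 0.68 after either other scaling. Of 7 genes listed as secreted and matrix targets, 2 rose and 3 fell (2 and 1 under all 3 scalings). On quantile-normalized arrays 3 were higher and 1 lower, and on median-centred ones 4 and 1. The list also holds receptor genes, and the falls include the receptors Tnfrsf19 (-0.40) and Edar (-0.22), neither of them called under all 3 scalings. Igfbp3, which binds insulin-like growth factors, rose by 2.74 in G609G/G609G (SE 0.07, adjusted p = 2.88e-08) and by 0.63 in LCS/LCS (adjusted p = 0.000422). Thbs1, a matrix glycoprotein that restrains vessel growth, fell by 2.41 in G609G/G609G and rose by 0.47 in LCS/LCS. On the arrays of G609G/G609G, 10 of 11 progenitor and fibroblast markers were also lower, beside 53.5% of all genes. Their list mean was 8.66 to 8.78 against 9.70 to 9.75 in wt, and their part in the Thbs1 value was not tested.

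**Figure D5:**
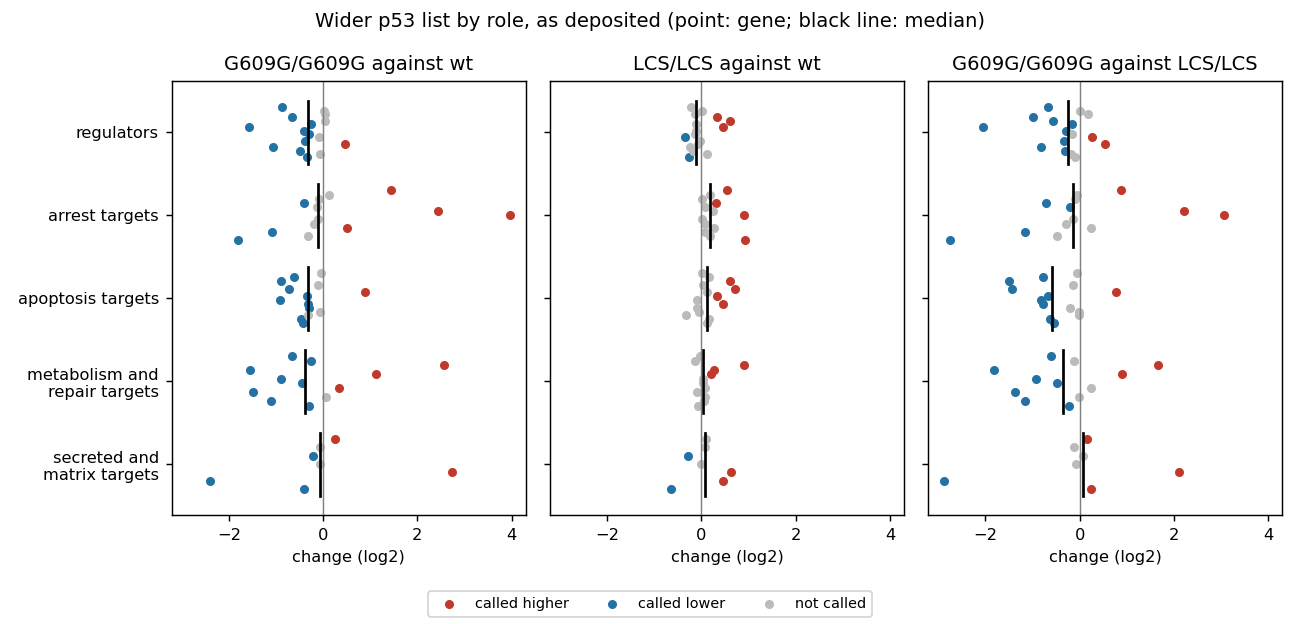
Change (x axis, log2) of the 62 measured genes of the wider p53 list by role, as deposited, 1 panel per comparison with 1 point per gene and the median of each role as a black line. In G609G/G609G against wt a few genes stand far to the right while the medians lie at or left of 0.

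For each member the genes with the nearest profile were taken by the Euclidean distance between log2 signals, centred per gene, over the 9 arrays. The arrays share their genotypes, so nearness mainly reflects the differences between 3 groups. The nearest genes to Cdkn1a were Ddit4 (distance 0.44), Depp1 (0.51) and Igfbp3 (0.69), with Pearson correlations of 0.992, 0.988 and 0.981. Ddit4 changed by 2.56 and 0.91 against wt in G609G/G609G and LCS/LCS, where Cdkn1a changed by 2.71 and 1.09. Trp53inp1 lay nearest to Myom1, an M-band protein gene of striated muscle (0.31), Apoc3 (0.36) and Hpd (0.40). Sesn1 lay nearest to Slc43a1 (0.23), Fbxo31 (0.25) and Sox4 (0.28), and Eda2r to Chac1 (0.21), Nfkbia (0.22) and Pmm1 (0.25). Among the falling members, Phlda3 lay nearest to Crtac1 (0.12), Itgb2 (0.16) and Actg2 (0.19), and Perp to Cep78 (0.14), Dclre1a (0.17) and Fam102a (0.18). Mdm2 and Ccng1, whose signals moved little, had nearest genes at 0.07 (Zfp945) and 0.09 (Ccr6).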

How the data were processed

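Total RNA of perigonadal white adipose tissue was labelled for Affymetrix arrays, per the labels' protocols. The authors deposited log2 signals per gene-level probe set. The log2 scale was inferred from the range of the values, and their background correction, summarisation and scaling are not given in the sources used here. Per the submitters' processing notes the build was mm9. Of 10 samples the series names, 9 were analysed here. Groups came from sample titles. The series' design text speaks of biological replicates, but the labels name no animals. If arrays shared animals, the p-values would in part measure technical spread. With 3 arrays a genotype, precision is limited by that number.

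All 23332 probe sets on 9 arrays entered 1 limma 3.58.1 fit (R 4.3.3) with a mean per genotype, 6 residual degrees of freedom, p-values (two-sided) adjusted by Benjamini-Hochberg across the whole table, and calls at an adjusted p of 0.05 or less. Counts over all genes use 14860 genes, each by its brightest probe set. The whole tables called 12307 probe sets in G609G/G609G against wt, 4005 in LCS/LCS against wt and 12147 in G609G/G609G against LCS/LCS. Older symbols were matched through RefSeq. Members and lists were chosen with earlier results of these data known. The text names the members, a fixed set (Mdm4, Cdkn2a, Atm, Sesn2, Ccng2, Trp53inp2, Gadd45a, Pmaip1, Bbc3) and, from up to 3 called genes per role, comparison and direction with the largest change, most of them. Cdkn1b was added after its value was seen. The fit was checked on simulated data. Tables and figures used Python 3.11.15, pandas 2.3.3 and matplotlib 3.10.9.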

Additional observations from a re-analysis of the deposited data

How the results depend on the processing

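Each result was recomputed under 21 alternatives, 9 of them leaving out 1 array. Of 501 values of the 8 members, 456 kept their direction and their side of the threshold, 24 lost the call, 15 gained one and 6 turned. The turns came with quantile normalization and median centring: Mdm2 in G609G/G609G against wt (0.25 and 0.21) and against LCS/LCS (0.32 and 0.19), and Ccng1 against LCS/LCS (0.34 and 0.29). Among other named genes the same scalings turned, in this order, Ppm1d (0.32, 0.34), Cdkn1c (0.13, 0.025), Mdm4 (0.15, 0.13) and Gadd45a (0.33, 0.29) against wt, and Mdm4 (0.34, 0.22), Ccng2 (0.44, 0.32) and Gadd45a (0.23, 0.17) against LCS/LCS. Quantile normalization alone turned Lmna (0.0615 and 0.0883), and Bbc3 against wt was called higher with median centring (0.32). Cdkn1b turned too, against wt (0.39, 0.34) and against LCS/LCS (0.41, 0.27). The G609G/G609G arrays have the lowest medians, which both scalings raise. Members called lower in LCS/LCS against wt were 1 as deposited, 2 after quantile normalization and 0 with a fold of at least 1.5, with the methods' t-test (unpaired, p of 0.05 or less, fold of at least 1.5) and with that test after Benjamini-Hochberg, since the fall of Trp53inp1 is below that fold. The counts of all probe sets called, G609G/G609G against wt, were 6934 with that fold, 6650 by the methods' t-test and 6177 after its adjustment. The counts of all probe sets called, LCS/LCS against wt, were 1385, 1487 and 1233, and of all probe sets called, G609G/G609G against LCS/LCS, 7184, 6933 and 6511, in the same order. In LCS/LCS against wt, 6511 were called with array weights and 2669 to 4805 without 1 array, the fewest without LCS/LCS replicate 3. The wider list gave 23 calls in G609G/G609G against wt and 8 in LCS/LCS against wt with the fold or either t-test, for 44 and 20 as deposited. Each of these settings applies the fold minimum, so the part of the t-test itself was not separated. The cause of the other moves was not tested. With the replicate number as a block (replicate block) the calls were 12434, 3861 and 12247, and among members only Mdm2 in G609G/G609G against LCS/LCS gained a call (-0.18, adjusted p = 0.0414). The numbers are not taken as pairs, since deviations of same-numbered arrays correlated at -0.071 to 0.230 and 9 of 18 checks put an array nearest to its own number. No member had another probe set to try, and Eda2r could not be fitted among the brighter 50% of probe sets, where it does not belong. Without detection calls, low signals such as those of Eda2r have no stated floor.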
